A study of Mus musculus with 10 samples.

Results

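The genes examined here encode the microRNA silencing machinery: the nuclear processing enzyme gene Drosha and its RNA-binding partner Dgcr8, the cytoplasmic enzyme gene Dicer1, the Argonaute genes Ago1, Ago2, Ago3 and Ago4, and the TNRC6 genes Tnrc6a, Tnrc6b and Tnrc6c. They were taken by symbol from the 55421 genes in the count files. Of these 10 genes, 9 had reads and were compared, and Dgcr8 was listed at 0 in every library. MOV10 is an RNA helicase, and the study set testes that lack it beside wild type testes and sequenced the RNA bound to it. The data were 10 libraries from mouse testes at postnatal day 21: 3 of RNA-seq from wild type mice, 3 of RNA-seq from Mov10-/- mice and 4 of CLIP-seq against MOV10, made from testes that the study's methods give as wild type. In the Mov10-/- mice floxed exons of Mov10 had been removed throughout the body by an Actb-Cre transgene, which is driven by the promoter of a gene active in nearly all cells, and the mutants were of a mixed 129, C57BL/6 and FVB background. Each RNA-seq library came from 1 pair of whole testes. In CLIP-seq, ultraviolet light links a protein to the RNA it touches, and an antibody against MOV10 then recovers that RNA. The study took the RNA of its 4 CLIP-seq libraries from the main signal on the membrane and from a position above it. It does not say which library came from which position.

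Primary microRNA transcripts are cut in the nucleus by DROSHA held by DGCR8, and the resulting hairpins are cut in the cytoplasm by DICER1. The mature strand is loaded into an Argonaute protein and pairs with target RNA mainly through its seed. TNRC6 proteins bind Argonaute and recruit the deadenylase complexes that shorten the poly(A) tail, after which the RNA is decapped and degraded. In the male germ line, DROSHA, DGCR8 and DICER1 are known to be needed for normal sperm production, and MOV10 is known from cultured cells as a partner of Argonaute proteins.

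The sequences that tie these genes to microRNAs are shown first. The seed, bases 2 to 8, is in capitals. The let-7 family is a set of abundant, deeply conserved microRNAs, of which let-7a is shown (GRCm38.p6, chr13:48538239-48538260, minus strand). Both arms of miR-1306 are shown because their hairpin lies inside a coding exon of Dgcr8 itself (5p arm chr16:18284288-18284310, 3p arm chr16:18284248-18284268, both minus strand). The mature sequences are from RefSeq, where 11 mature microRNAs of the mouse table share the let-7a seed and neither seed of miR-1306 is shared with another. MicroRNAs themselves were not measured in these libraries.
mmu-let-7a-5p: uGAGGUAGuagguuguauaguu
mmu-miR-1306-5p: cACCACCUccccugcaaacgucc
mmu-miR-1306-3p: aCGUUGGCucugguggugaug

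The genes have long 3′ UTRs, the region in which most known microRNA sites lie. Their median 3′ UTR was 3766.5 bases in the annotation, against 993 bases over the 16384 protein-coding genes with reads in all 6 RNA-seq libraries. Ago3 (12742 bases), Tnrc6b (11609 bases) and Ago2 (11064 bases) were longer than 99.9%, 99.9% and 99.8% of those genes. Drosha was the exception with 169 bases, longer than 10.2% of them. The 3′ UTRs were searched on the transcript strand for CTACCTC, the complement of the let-7 seed. It was present in Ago2 at 3 places and in Ago3 at 1, and in none of the other 8 genes. That is 20% of the genes against 9.41% of the coding genes, and 0.0739 against 0.0725 matches per kilobase, so the density was close to that of all genes. Each match is shown in capitals with its flanks, in GRCm38, on the minus strand as transcribed. The Ago2 windows are chr15:73101718-73101746, chr15:73100034-73100062 and chr15:73097976-73098004, and the Ago3 window is chr4:126335034-126335062. A match in these letters is a description and not a shown site of binding.
Ago2 site 1: acagatgcataaaagCTACCTCtgacttc
Ago2 site 2: caggtggcctctgtcCTACCTCcaggcac
Ago2 site 3: ttttacaatgtggatCTACCTCagttaaa
Ago3 site 1: ggcacctgccctcacCTACCTCaccaagt

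Ago1 (ENSMUSG00000041530, chr4:126435012-126468583), Ago3 (ENSMUSG00000028842, chr4:126331704-126429556) and Ago4 (ENSMUSG00000042500, chr4:126489541-126533472) lie side by side on the minus strand of mm10. Ago2 (ENSMUSG00000036698, chr15:73095844-73184935, minus strand) lies apart from them, on the chromosome that also holds Drosha (ENSMUSG00000022191, chr15:12824815-12935291, plus strand) and Tnrc6b (ENSMUSG00000047888, chr15:80711313-80941085, plus strand). Dicer1 (ENSMUSG00000041415, chr12:104687742-104751952, minus strand), Tnrc6a (ENSMUSG00000052707, chr7:123123885-123195296, plus strand) and Tnrc6c (ENSMUSG00000025571, chr11:117654289-117763439, plus strand) are each on a chromosome of their own. The values are of whole genes, over all exons.

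The RNA-seq libraries had 5083407 to 9230540 reads counted on genes, lowest in Mov10-/- replicate 3, where 57.2% of reads were listed as not aligned. The 4 CLIP-seq libraries held far fewer usable reads, with 3404 to 4934 on genes. Between 99.48% and 99.57% of the reads in each of them were listed as not aligned. In all 4, more reads fell outside genes than on them, with 39232 against 3948 in replicate 1 and 22783 against 4934 in replicate 5. CLIP-seq replicates 1, 2 and 3 differed from one another by less than sampling noise (chi-square per degree of freedom 0.223 to 0.237, and 1.62 to 1.93 when replicate 5 was set against any of the 3) and were counted as 1 sample. Mov10 itself was at 114, 96.8 and 120 CPM (counts scaled to library size, with TMM scaling between libraries) in wild type replicates 1, 2 and 3 and at 29.2, 26.7 and 26.8 CPM in Mov10-/- replicates 2, 3 and 4, so no label went against it (log2 fold change -1.999, edgeR quasi-likelihood adjusted p = 0.00552). Germ cell and somatic markers of testis were present, with the meiotic gene Sycp1 at 172 to 198 CPM and the Sertoli cell gene Sox9 at 50.7 to 93.2 CPM across the 6 libraries. Wild type replicate 2 stood apart: its 29 spermatid markers summed to 2665 CPM, against 613 to 1380 CPM in the other 5 libraries. Its Sertoli cell markers (1162 CPM) and spermatogonia markers (769 CPM) had the lowest sums of the 6. The libraries were made from whole testes, so that fewer cells of a type and less RNA per cell cannot be told apart.

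The level of each gene in wild type testes was compared on a length scale, as reads per exonic kilobase scaled to library size (RPKM). Drosha, which makes the first cut, had the highest level at 24.4 ± 2.83 RPKM (SD, n = 3), with 25.4, 21.2 and 26.6 RPKM in replicates 1, 2 and 3. Tnrc6c followed at 18.9 ± 1.53 RPKM and Ago4 at 17.9 ± 1.88 RPKM. Drosha lay above Tnrc6c and Ago4 above Tnrc6a without overlap of the libraries, while the ranges of every other pair of neighbours in the order overlapped. Compared within each library, the upper gene of a pair was higher in all 3, except Tnrc6a over Ago2 (2 of 3). Drosha was above 83.1% of the 15731 protein-coding genes tested, whose median was 10.2 RPKM.

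The middle of the order held Tnrc6a at 13.2 ± 1.95 RPKM, Ago2 at 12.2 ± 2.53 RPKM and Dicer1 at 9.56 ± 2.08 RPKM. Ago2, the Argonaute able to cleave its target, was at 12.2, 9.61 and 14.7 RPKM in replicates 1, 2 and 3, and Dicer1 was at 11.0, 7.17 and 10.5 RPKM. Both were lowest in wild type replicate 2. The lower end held Ago1 at 8.63 ± 1.77 RPKM, Ago3 at 7.20 ± 1.297 RPKM and Tnrc6b at 5.67 ± 0.98 RPKM. All 9 genes thus lay within a 4.3-fold span, and the lowest on this scale, Tnrc6b, was above 33.4% of the protein-coding genes tested. The order depended on the length used. Over the longest annotated transcript in place of all exons, Dicer1 was at 16.3 RPKM and above Ago2, Tnrc6a at 20.5 RPKM and above Ago4, and Ago3 at 7.65 RPKM was lowest, just under Tnrc6b at 7.74 RPKM. Drosha (31.7 RPKM) and Tnrc6c (20.99 RPKM) also moved by more than the spread between libraries and stayed at the top of the order.

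**Figure D1:**
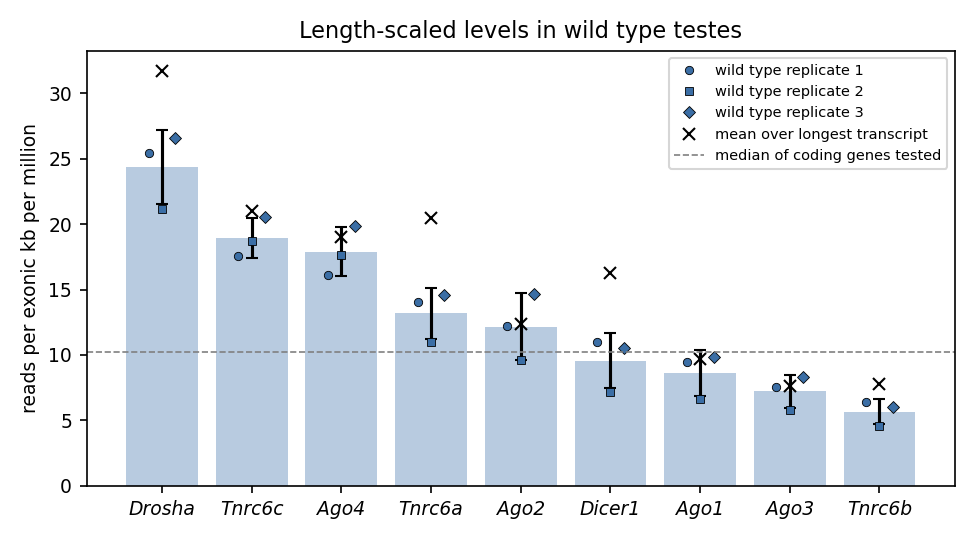
Level of each gene in the 3 wild type libraries in RPKM (bars, mean; error bars, SD; symbols, replicates), with the mean over the longest transcript as crosses and the median of protein-coding genes tested as a dashed line. Drosha is highest at 24.4 RPKM and Tnrc6b lowest at 5.67 RPKM, and wild type replicate 2 is the lowest symbol for every gene except Tnrc6c and Ago4.

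Dgcr8 (ENSMUSG00000022718, chr16:18253948-18289246, minus strand, mm10) had no read in any of the 6 RNA-seq or 4 CLIP-seq libraries. Its genome neighbours were listed at 0 as well: in chromosomal order Dgcr6, Prodh, Rtn4r, Ccdc188, Zdhhc8, Ranbp1, Gm49776, Trmt2a, Dgcr8 and Tango2, 10 protein-coding genes in a row, had no read in all 10 libraries together. They span chr16:18052860-18348103. On one side Arvcf had 21 reads, and farther out Gnb1l had 1617 reads. On the other side Vpreb2 had 4 reads and Slc25a1 3944 reads. Ranbp1 encodes a partner of the transport GTPase RAN and is expressed in most cell types. Of 21976 protein-coding genes in the files, 2550 (11.6%) were at 0 throughout. There were 38 runs of 10 or more consecutive genes at 0, this one included. Most of them were clusters of olfactory receptor, keratin-associated and like genes, and another run of 10 genes went from Atg2a to Slc22a12 on chr19. The value of Dgcr8 is therefore given as listed at 0 and is not read as a level. The cause of the run was not tested. In addition, 17.1% of the exonic bases of Dgcr8 lie in other annotated genes, against at most 1.56% for each of the other 9 genes.

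**Figure D2:**
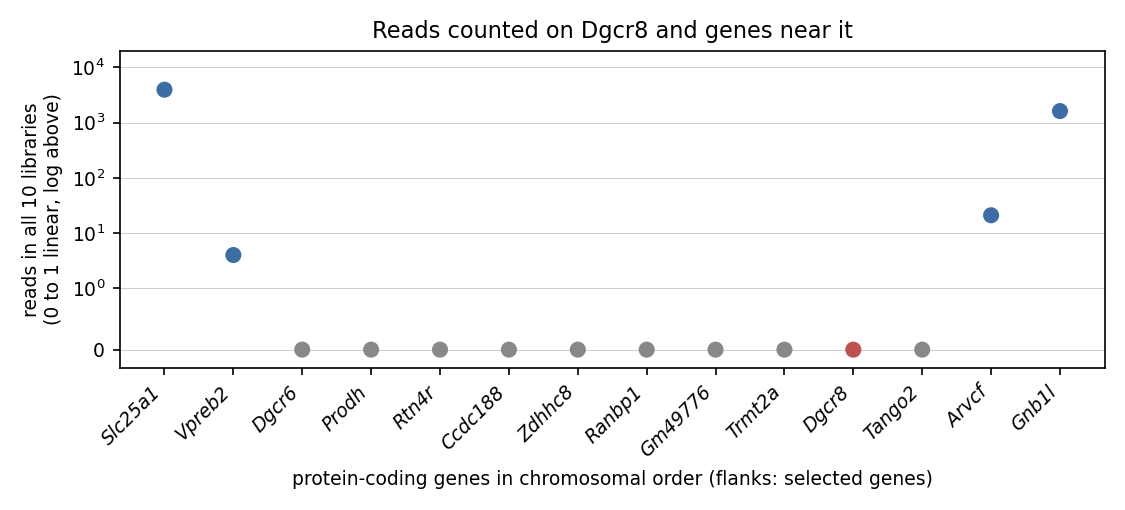
Reads in all 10 libraries together for Dgcr8 (red), the other genes of its run at 0 and selected protein-coding genes on both sides, in chromosomal order, on an axis that is linear from 0 to 1 and logarithmic above. Dgcr8 and 9 genes around it are at 0 (grey), and the outermost genes plotted have 3944 and 1617 reads.

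The comparison of genotypes asks whether loss of MOV10 altered the RNA of the silencing machinery. None of the 9 genes passed the study's thresholds (fold change over 2, adjusted p under 0.05) in the edgeR quasi-likelihood test. There 0.00494% of the 20240 genes tested passed, which is 1 gene, Mov10. The study itself reports many more changed protein-coding genes with edgeR at these thresholds, most of them lower in Mov10-/- testes. Its methods do not name the kind of edgeR test. No member reached an unadjusted p under 0.05 either, and DESeq2 and edgeR's exact test, which called 1039 and 1101 genes in all, also called 0 of the 9. The 95% confidence intervals of the 9 fold changes all lay between 0.758-fold and 1.51-fold. Fitted values were above 0 for 8 of 9 genes, beside 10888 of all 20240 genes tested. The median log2 fold change of the 9 genes was 0.15, beside 0.032 over all genes tested. Without wild type replicate 2 that median was 0.064, with 0.020 over all genes, and the fitted values of Dicer1, Ago1 and Ago2 were 0.0999, 0.088 and 0.064.

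**Figure D3:**
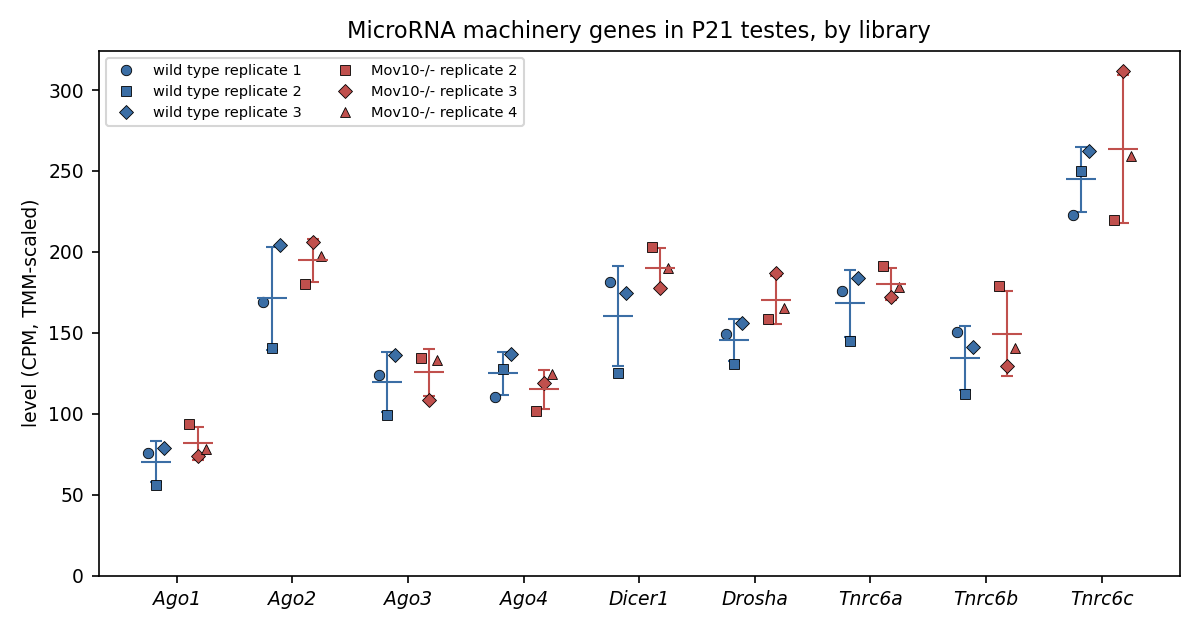
Level of the 9 genes in CPM with TMM scaling in the 3 wild type (blue) and 3 Mov10-/- (red) libraries, with the mean and SD of each group as horizontal bars. The groups overlap for every gene except Drosha, whose Mov10-/- libraries lie at 159 to 187 CPM and wild type libraries at 131 to 156 CPM.

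Among the processing enzymes, Drosha was at 149, 131 and 156 CPM in wild type replicates 1, 2 and 3 and at 159, 187 and 165 CPM in Mov10-/- replicates 2, 3 and 4. It was the only 1 of the 9 genes with all Mov10-/- libraries above all wild type libraries, an arrangement shown by 11.9% of all genes tested, while 14.1% had all Mov10-/- libraries below. The gap between the groups was small, from 156 to 159 CPM. The log2 fold change of Drosha was 0.23 (SE 0.11, 95% interval -0.025 to 0.48, adjusted p = 0.331, edgeR quasi-likelihood test). Dicer1 was at 182, 125 and 175 CPM in wild type and 203, 178 and 190 CPM in Mov10-/- testes. Only wild type replicate 1 reached into the Mov10-/- range, above Mov10-/- replicate 3. Its log2 fold change was 0.24 (SE 0.15, 95% interval -0.10 to 0.59, adjusted p = 0.438).

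Of the Argonaute genes, Ago2 was at 169, 140 and 204 CPM in wild type replicates 1, 2 and 3 and at 180, 206 and 198 CPM in Mov10-/- replicates 2, 3 and 4. The wild type values ran from the lowest of the 6 to nearly the highest, so that they enclosed most of the Mov10-/- range (log2 fold change 0.18, SE 0.14, adjusted p = 0.541). Ago1 was at 75.8, 55.7 and 79.2 CPM in wild type and 93.4, 74.2 and 78.0 CPM in Mov10-/- testes. It was the least counted of the 9 genes in all 6 libraries (log2 fold change 0.22, SE 0.16, adjusted p = 0.513). Ago3 was at 124, 99.4 and 136 CPM in wild type and 135, 109 and 133 CPM in Mov10-/- testes (log2 fold change 0.069, SE 0.14, adjusted p = 0.825). Ago4, known in the mouse for a role in male meiosis, was the 1 gene of the 9 with a fitted value below 0. It was at 111, 128 and 137 CPM in wild type and 102, 119 and 125 CPM in Mov10-/- testes, which overlap (log2 fold change -0.12, SE 0.12, adjusted p = 0.640).

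The TNRC6 genes overlapped between the genotypes throughout. Tnrc6a was at 176, 145 and 184 CPM in wild type replicates 1, 2 and 3 and at 191, 172 and 178 CPM in Mov10-/- replicates 2, 3 and 4 (log2 fold change 0.10, SE 0.11, adjusted p = 0.674). Tnrc6b was at 150, 112 and 141 CPM and at 179, 129 and 140 CPM (log2 fold change 0.15, SE 0.16, adjusted p = 0.644). Its highest value by far was in Mov10-/- replicate 2, and the other Mov10-/- libraries lay inside the wild type range. Tnrc6c, the most counted of the 9 genes in all 6 libraries, was at 223, 250 and 262 CPM and at 220, 311 and 259 CPM (log2 fold change 0.10, SE 0.14, adjusted p = 0.726). Mov10-/- replicate 3 alone carried its positive sign, since without it the value was -0.032.

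**Figure D4:**
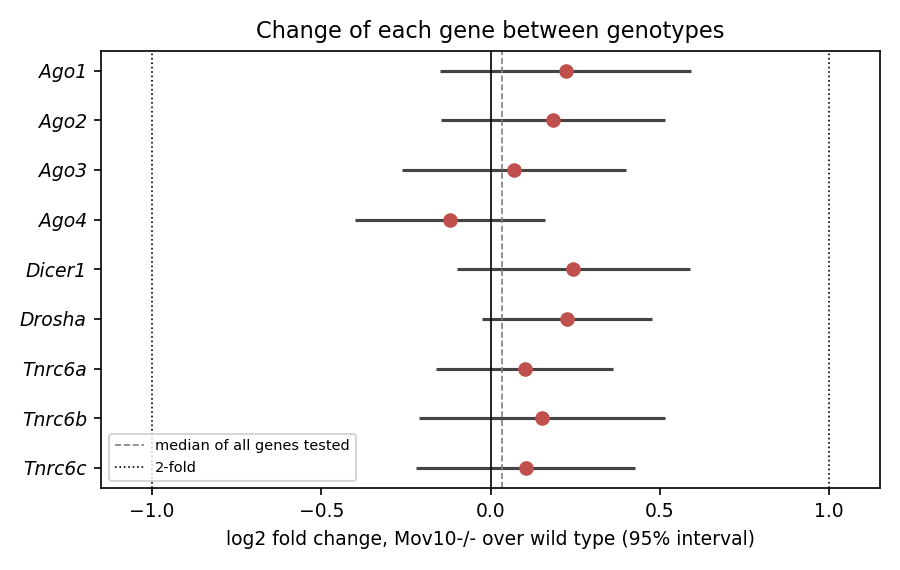
Log2 fold change of each gene in Mov10-/- over wild type testes with its 95% confidence interval, the median of all genes tested as a dashed line and 2-fold changes as dotted lines. All 9 intervals include 0 and none reaches a 2-fold change.

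The lowest values came mostly from 1 library. Wild type replicate 2, the library with the high spermatid marker sum, was the lowest of the 6 libraries for 7 of the 9 genes. The exceptions were Ago4 and Tnrc6c, both lowest in Mov10-/- replicate 2, which had the lowest spermatid marker sum. Between genotypes the spermatid markers had a median log2 fold change of -2.11. Of 27 tested, 16 were lower in all Mov10-/- libraries than in any wild type library, against 14.1% of all genes tested. The protamine gene Prm1, too low to be among the genes tested, was at 4.12, 25.7 and 0.859 CPM in wild type and 0.124, 0.822 and 0.617 CPM in Mov10-/- testes. In the RNA-seq libraries 3 reads stand at 0.325 to 0.590 RPM. The Mov10-/- values of Prm1 and that of wild type replicate 3 thus rest on few reads. The Sertoli cell markers had a median of 0.31 and were above 0 for 15 of 15 tested, beside 10888 of all 20240 genes tested. Over all listed Sertoli cell markers with reads, sums were 1162 to 1344 CPM in wild type and 1409 to 1641 CPM in Mov10-/- testes. Medians of the other marker lists were 0.084 for spermatocytes, 0.18 for spermatogonia, 0.23 for Leydig cells, 0.31 for peritubular and endothelial cells and 0.32 for macrophages. The part of these marker differences in the values of the 9 genes was not tested.

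The balance of paralogues within each family does not depend on scaling between libraries and was taken as the share of each gene in the family's reads per exonic kilobase. Ago4 made the largest Argonaute share, 39.3% ± 4.72 in wild type and 34.4% ± 2.89 in Mov10-/- testes (SD, n = 3 each). It was 35.5%, 44.6% and 37.7% in wild type replicates 1, 2 and 3 and 31.1%, 36.1% and 36.1% in Mov10-/- replicates 2, 3 and 4, so that the groups overlapped through wild type replicate 1. The difference was -4.86 percentage points (two-sided exact permutation test, p = 0.3, adjusted p = 0.933 over 7 shares, smallest p possible 0.1), and without wild type replicate 2 it was -2.20 points. Ago2 made 26.4% ± 1.89 and 28.8% ± 1.88, Ago1 18.7% ± 2.11 and 20.99% ± 2.97, and Ago3 15.6% ± 1.07 and 15.7% ± 1.77 in wild type and Mov10-/- testes. Among the TNRC6 genes, Tnrc6c made 50.3% ± 4.205 and 49.8% ± 6.504, Tnrc6a 34.8% ± 2.48 and 34.7% ± 3.30, and Tnrc6b 14.9% ± 1.81 and 15.5% ± 3.26. None of the 7 shares separated the genotypes, and with 3 libraries in each group the test could not have reached 0.05.

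The MOV10 CLIP-seq data ask which of these RNAs were recovered with the protein. Tnrc6b was the member with most CLIP-seq reads, 3, 4, 3 and 4 in replicates 1, 2, 3 and 5. Had reads fallen in proportion to wild type RNA-seq, 0.530, 0.460, 0.457 and 0.662 would have been counted. With replicates 1 to 3 counted as 1 sample, both samples were above that number, with a mean of 3.33 reads against 0.482 and with 4 reads against 0.662. Tnrc6b has the longest exonic sequence of the 9 genes, 23677 bases, and Ago1, Ago3 and Ago4 had lower RPM than it in wild type RNA-seq. The sum of 14 reads over the 4 libraries was matched or passed by 0.741% of the 20240 genes tested for genotype, of which 81.9% had no CLIP-seq read at all. In replicate 5 alone the 4 reads had an exact Poisson interval of 1.09 to 10.2 reads, which covers counting error only.

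As a ratio of mean CLIP-seq RPM (reads scaled to the total counted on genes) to mean wild type RNA-seq RPM, Tnrc6b was at 6.48. The edgeR quasi-likelihood test gave a log2 difference of 2.68 (SE 0.69, 95% interval 1.17 to 4.19, adjusted p = 0.00457) among the 268 genes that had 10 or more reads in both assays, summed over libraries. In that set 85.8% of genes were called higher in CLIP-seq, and the ratio of Tnrc6b ranked at 175 from the top, under the median of 8.42 and under 10, which 39.9% of the genes exceeded. The minimum of 10 reads already fixes a ratio of 4.63 for a gene at the RNA level of Tnrc6b. Entry to the test thus required a high ratio, so the call is not particular to Tnrc6b and is not read as evidence of binding. With the like replicates counted once Tnrc6b had 7.33 reads, under that minimum. The ratio also depended on the total used. It was 1.22 with all uniquely mapped reads (adjusted p = 0.815, same test). With TMM scaling across both assays it was 0.789 (adjusted p = 0.720, same test). The study's methods name the total of mapped reads. Aligned reads listed as not unique were left out of the total used here, so a ratio that includes them was not computed.

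**Figure D5:**
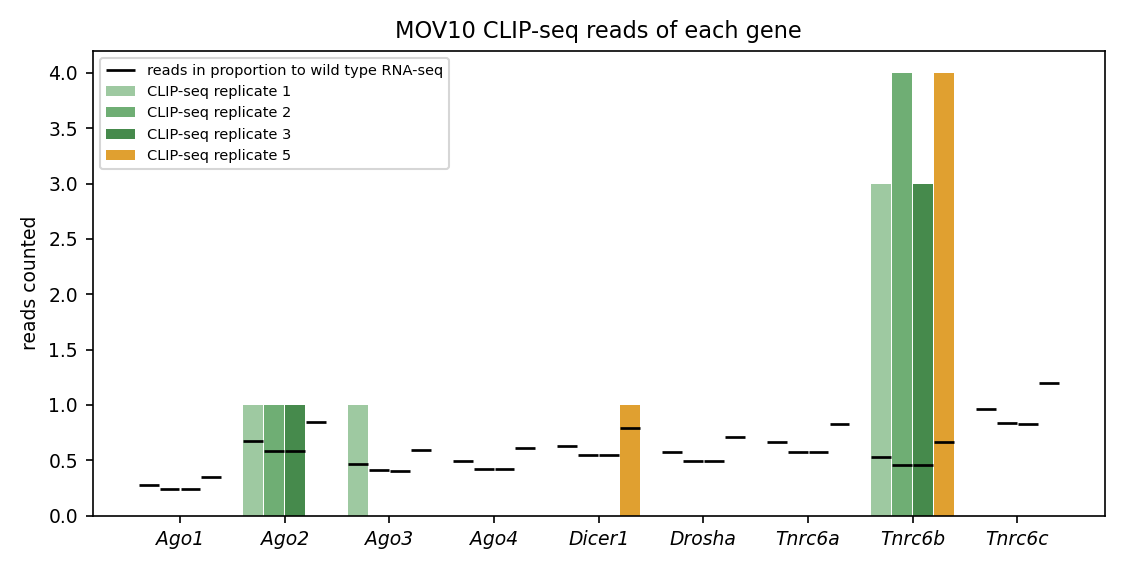
CLIP-seq reads of the 9 genes with RNA-seq reads in replicates 1, 2, 3 and 5 (bars), with the number that would be counted in proportion to wild type RNA-seq as black lines. Tnrc6b has 3 or 4 reads in every library, and no other gene has more than 1 in any.

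The other members had 1 read or none in each CLIP-seq library. Ago2 had 1, 1, 1 and 0 reads in replicates 1, 2, 3 and 5, where replicates 1 to 3 count as 1 sample. Its ratio was 0.815, but 1.63 without replicate 5, 0.111 with all uniquely mapped reads and 0.0839 with TMM scaling. It thus has no settled side of 1. Ago3 had 1 read, in replicate 1, and Dicer1 had 1, in replicate 5. Ago1, Ago4, Drosha, Tnrc6a and Tnrc6c had no read, as had Dgcr8. For the 8 members with RNA-seq reads other than Tnrc6b, proportion to RNA would have given at most 1.20 reads in any library, the value for Tnrc6c in replicate 5. A count of 0 allowed up to 3 reads (a one-sided limit, unlike the two-sided interval above), or 608 to 881 RPM, which is above the wild type RNA-seq level of every member (70.1 to 243 RPM). A lower recovery of these RNAs than their RNA-seq level was therefore not detectable at this depth. Over the members as a whole, replicate 5 had 5 reads where proportion to RNA would have given 6.58, and replicates 1 to 3 had on average 4.67 where it would have given 4.79. Positions of reads along the RNA were not analysed here, so that the Tnrc6b reads cannot be placed in or outside its 3′ UTR.

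The wider pathway was described through 4 lists of partner genes. None of their 87 tested genes passed the thresholds for genotype. Of 24 biogenesis partners, 2 were higher in Mov10-/- testes at an unadjusted p under 0.05 and 0 lower, where 5.58% and 11.9% of all genes tested were higher and lower. These were Safb, a nuclear scaffold protein gene, at 157, 157 and 174 CPM in wild type and 177, 262 and 199 CPM in Mov10-/- testes (log2 fold change 0.38, adjusted p = 0.245), and Adarb1, which encodes an RNA editing enzyme, at 79.4, 79.7 and 79.5 CPM and 93.9, 93.1 and 88.5 CPM (log2 fold change 0.21, adjusted p = 0.282). The median over the list was 0.055. Of 19 genes for Argonaute loading and partners, 2 were higher and 0 lower at that p, with a median of 0.12. These, named after their values were seen, were the chaperone gene Hspa8 (log2 fold change 0.52, adjusted p = 0.225), whose groups overlapped, and Zswim8, a ubiquitin ligase subunit gene known for the decay of Argonaute (0.30, adjusted p = 0.284), whose groups overlapped as well. Neither of the following reached that p. Hsp90ab1, which encodes a chaperone used in loading, had a log2 fold change of 0.25 (adjusted p = 0.360), and Snd1, a nuclease subunit gene, 0.23 (adjusted p = 0.364). Both had all Mov10-/- libraries above all wild type libraries. In this list 5 of 19 genes had that arrangement and 0 had the reverse, against 11.9% and 14.1% of all genes tested. Among the 24 biogenesis partners 4 had it and 0 the reverse.

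Downstream of TNRC6, 0 of 22 deadenylation genes were higher and 3 lower at an unadjusted p under 0.05, where 5.58% and 11.9% of all genes tested were higher and lower. In 5 of 22 all Mov10-/- libraries lay below all wild type libraries, against 14.1% of all genes tested. In 1 of 22 they all lay above, against 11.9%. The median over this list was 0.034. Btg4, an adaptor of the CCR4-NOT deadenylase, was at 19.2, 31.6 and 17.6 CPM in wild type replicates 1, 2 and 3 and at 9.30, 8.02 and 13.5 CPM in Mov10-/- replicates 2, 3 and 4 (log2 fold change -1.14, SE 0.32, adjusted p = 0.160). The groups did not overlap, and its highest value was in wild type replicate 2, the library with the highest spermatid marker sum, whose part in this was not tested. Cnot4, which encodes a ubiquitin ligase of that complex, had a log2 fold change of -0.33 (adjusted p = 0.227). Pabpc4, a poly(A)-binding protein gene, lay the other way at 0.42 (adjusted p = 0.325). Among 22 genes of decapping and decay, none reached an unadjusted p under 0.05 and the median was 0.085. All Mov10-/- libraries lay above all wild type libraries in 4 of these 22 and below in 0. Patl1 and Lsm6, which encode activators of decapping, had values of 0.27 and 0.19 (adjusted p = 0.329 and 0.502). In the CLIP-seq data 1 gene of the 4 lists had 10 or more reads: Ddx6, a helicase that links TNRC6-bound deadenylase to decapping, with 3, 2, 3 and 4 reads in replicates 1, 2, 3 and 5 and a ratio of 3.90. No test is given for it, since the 10 reads by which it was picked already give a ratio of 3.25 at its RNA level. Its ratio was 0.757 with all uniquely mapped reads and 0.481 with TMM scaling.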

How the data were processed

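Each library had 1 file of unnormalized counts per Ensembl gene identifier, as the authors deposited it, and the lines for reads that fell on no gene or could not be assigned were left out of totals and tests. For RNA-seq the authors trimmed adapters, aligned to mm10 with STAR and counted with htseq-count on an Ensembl annotation. Tool versions, the strand setting and the CLIP-seq counting are not given in the sources used here. Symbols, exonic lengths and 3′ UTRs came from another annotation of the same build, matching 55240 of 55421 genes, so lengths are approximate. MicroRNA sequences came from RefSeq tables. Those of the 3′ UTRs came from the transcript sequences of that other annotation, with coordinates on GRCm38.

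Genes above 1 RPM in at least 3 of 6 RNA-seq libraries were fitted with edgeR 4.0.16 in R 4.3.3 (TMM, quasi-likelihood test, Benjamini-Hochberg adjustment over 20240 genes), and a call needed an adjusted p under 0.05 with a change of more than 2-fold. The same test compared CLIP-seq with wild type RNA-seq where both assays had 10 or more reads, summed over libraries, and with library totals on genes. Paralogue shares were compared by an exact permutation test. DESeq2 1.42.0, edgeR's exact test, limma 3.58.1 (voom), other scalings, filters and lengths, a replicate block and each library left out were alternatives. Counts were simulated for the genotype comparison with 200 of 20240 genes changed by 2 log2 units up or down. Of these, 135 were recovered by the quasi-likelihood test, which made 6 false calls. Changes as small as those fitted for the members were not simulated. All 10 members are named, with Mov10 as the check of labels. From each partner list up to 2 genes per direction are named, those with the smallest p among genes whose genotypes do not overlap, together with partner genes of at least 10 CLIP-seq reads and the defining markers of cell types. The members and lists were chosen with earlier results of these data known. The p-values measure the spread between these libraries. With 1 read at 0.108 to 0.197 RPM in RNA-seq and 203 to 294 RPM in CLIP-seq, CLIP-seq limits what could be seen. Scripts ran in Python 3.11.15 and matplotlib 3.10.9. The authors' supplementary tables were not used for values. Some genes flanking the run around Dgcr8 are not reported here.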

Additional observations from a re-analysis of the deposited data

How the results depend on the processing

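No member was called for genotype by any of the 13 alternatives, whose lowest adjusted p over the members was between 0.284 and 0.948. Of 117 recomputed log2 fold changes, 115 kept their direction. Ago3 turned to -0.041 without wild type replicate 2 and Tnrc6c to -0.032 without Mov10-/- replicate 3, in ranges up to 0.16 and 0.22 with other libraries left out. With each library left out, 0 to 1 members reached an unadjusted p under 0.05, the 1 being Ago2 without wild type replicate 3 (log2 fold change 0.32, edgeR quasi-likelihood adjusted p = 0.284). Over all genes the number called was 1 with the quasi-likelihood test, 1039 with DESeq2, 1101 with the exact test, 2 with voom, 6 without TMM, 10 without the filter and 184 with the replicate number as a block. It was 0 to 1 with a library left out, 0 without Mov10-/- replicate 3 or 4. The replicate block called 0 members, with a median log2 fold change of 0.19 and a lowest adjusted p of 0.948. The genotypes share only the numbers 2 and 3, whose deviations correlated at -0.46 and -0.34. These values gave no sign that equal numbers pair the libraries, but cannot exclude it. Of 49 recomputed differences in paralogue share, 38 kept their direction. With 1 library left out, the difference in percentage points ran from -0.655 to 1.07 for Ago3, -1.68 to 1.62 for Tnrc6a, -1.25 to 1.95 for Tnrc6b and -3.56 to 2.93 for Tnrc6c, so these have no settled sign, and Ago3 was at -0.334 with raw reads. Those of Ago1 (0.555 to 3.33), Ago2 (1.44 to 3.29) and Ago4 (-6.72 to -2.20) kept theirs. The Tnrc6b CLIP-seq ratio was 0.789 with TMM across assays and 1.22 with all uniquely mapped reads. It was 5.90 to 6.94 with 1 library left out. Lowering the minimum from 10 reads to 1 read admitted 4 members in place of 1. Counting the like CLIP-seq replicates once in that minimum, an alternative chosen after seeing the data, admitted 0 members and 82 genes in all, of which 82 were called higher. Depth limits the CLIP-seq values, since 1 read more or less changes each member's ratio, and RNA-seq replicates were 3 per genotype.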
